A study of Mus musculus with 48 samples.

Results

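The genes described here are 10 acid-base genes of the renal intercalated cell, found by their symbols in the ribosome profiling and RNA sequencing tables of mouse kidney. They are Atp6v1b1, Atp6v1c2, Atp6v1g3, Atp6v0a4 and Atp6v0d2, which encode tissue-restricted subunits of the vacuolar proton pump, the cytosolic carbonic anhydrase gene Car2, the transporter genes Rhcg, Slc26a4 and Slc4a1, and the transcription factor gene Foxi1. All 10 were among the 12423 genes listed in both assays and among the 11863 genes tested, which had a median of at least 0.5 RPKM (reads scaled by coding length and by library size) in each assay. The kidneys came from male C57BL/6JRj mice aged 11-12 weeks that were kept in alternating light and dark, with lights on at Zeitgeber time ZT00 and off at ZT12, and no group was treated or carried a mutation. At each of 12 timepoints spaced 2 h apart, 2 replicate lysate pools were made, each from 2 mice. Every pool gave 1 RNA-seq library, which measures transcript abundance, and 1 RPF-seq library of ribosome-protected fragments, so that each assay had 24 samples. Dividing a gene's footprint level by its transcript level in the same pool gave its translation efficiency (TE).

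Intercalated cells are the acid-base cells of the renal collecting system. In type A cells carbonic anhydrase makes protons and bicarbonate, a vacuolar ATPase pumps the protons into the urine and an exchanger returns bicarbonate to the blood, whereas type B cells secrete bicarbonate through pendrin. The pump has a cytosolic V1 sector that hydrolyses ATP and a membrane V0 sector that passes the protons, and several of its subunits exist as a widespread form and a form restricted to a few cell types. Whole kidney was measured, so a lower share of intercalated cells and less RNA per intercalated cell cannot be told apart. Several of the genes are also known from other cells, among them Car2 and Atp6v0a4 in other tubule segments, Slc4a1 and Car2 in red blood cells and Atp6v0d2 in macrophages and osteoclasts.

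The values rest on whole reads that could be recovered from the deposited RPKM. Relative to the median library, the depth ran from 0.598 to 2.04 in RNA-seq and from 0.701 to 1.58 in RPF-seq. A median of 148.5 reads stood behind the Foxi1 values in RNA-seq, the fewest of the 10 genes, and 6411.5 behind those of Atp6v0a4, the most. The RPF-seq library of ZT04 replicate 2 stood apart, with 125 genes at 0 against at most 14 in the other RPF-seq libraries, and the tests that use it, those of RPF-seq, TE, isoform shares and correlations, were also run without it. The timepoint labels were checked with 4 clock genes, and the fitted RNA peaks of Nr1d1 at ZT7.52, Dbp at ZT10.5, Per2 at ZT14.7 and Arntl at ZT22.5 followed one another in that order.

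The levels of the 10 genes covered a wide range. RPKM is per length, so levels can be set side by side between genes. Car2, which encodes carbonic anhydrase II, was the most abundant, at 302 ± 30 RPKM in RNA-seq and 427 ± 50.2 RPKM in RPF-seq (SD, n = 24). Foxi1, the forkhead factor on which intercalated cell identity depends, was the least abundant, at 8.34 ± 2.24 RPKM in RNA-seq and 10.8 ± 2.62 RPKM in RPF-seq. Between these, the mean RNA-seq levels of the pump genes were 157 RPKM for Atp6v0a4, 108 RPKM for Atp6v1g3, 70.3 RPKM for Atp6v1b1, 29.8 RPKM for Atp6v0d2 and 19.2 RPKM for Atp6v1c2. The transporter genes lay at 65.3 RPKM for Rhcg, an ammonia channel, 43.4 RPKM for Slc26a4, which encodes pendrin, and 16.7 RPKM for Slc4a1, which encodes the basolateral chloride-bicarbonate exchanger. In RNA-seq the order was the same in all 24 samples for 6 of the 9 neighbouring pairs, and the ranges overlapped for Atp6v1b1 with Rhcg, Atp6v1c2 with Slc4a1 and Slc4a1 with Foxi1. In RPF-seq the upper part of the order was less distinct, as Atp6v0a4 exceeded Atp6v1g3 in 13 of 24 samples, Atp6v1g3 exceeded Rhcg in 16 and Rhcg exceeded Atp6v1b1 in 15.

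**Figure D1:**
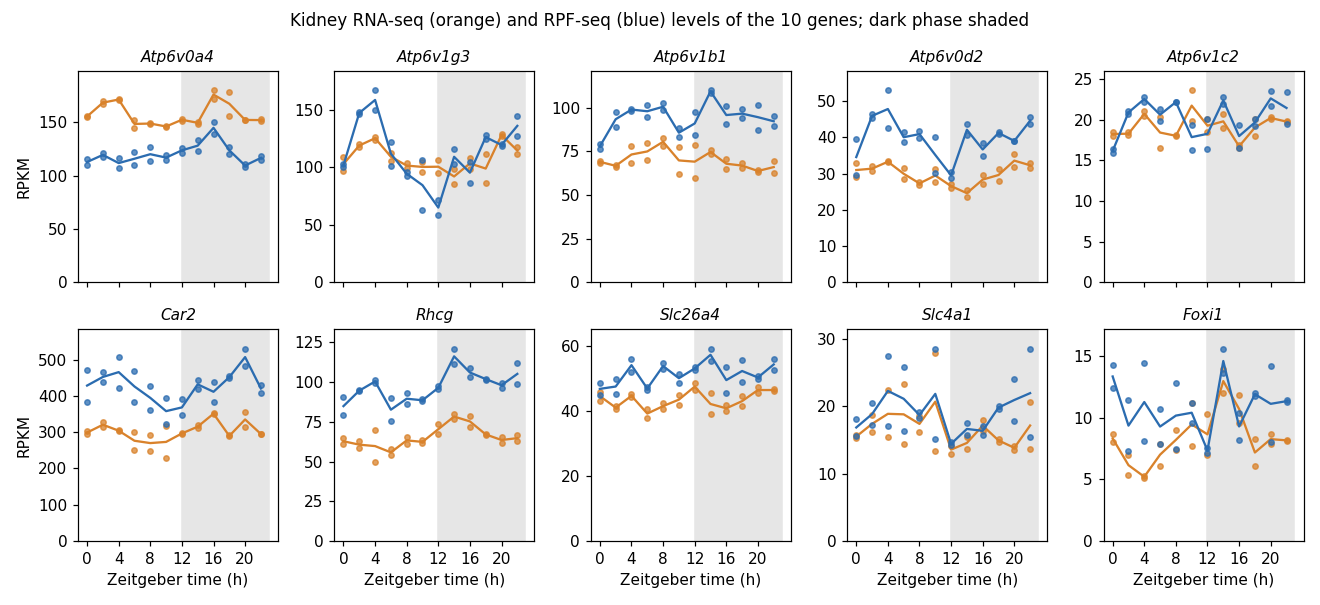
RPKM (vertical axes, starting at 0) of the 10 genes against Zeitgeber time in hours, RNA-seq in orange and RPF-seq in blue. Points are the 2 pools per timepoint, lines join their means and the dark phase is shaded. Atp6v0a4 has its blue line below the orange one at every timepoint, Foxi1 RNA is highest at ZT14, and Atp6v1g3 footprints fall to their lowest values at ZT12.

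In 9 of the 10 genes the TE lay above that of the median gene tested (0.956). Rhcg had the highest TE of the set, 1.49 ± 0.147 (SD, n = 24), at the 82.6 percentile of all genes tested, and its ratio was above 1 in 24 of 24 pools. Atp6v0a4 had the lowest, 0.766 ± 0.0641, at the 36.4 percentile, and was below 1 in every one of the 24 pools. Its transcript exceeded that of Atp6v1g3 in all 24 samples, whereas the footprint levels of the 2 genes overlapped. The other 18 pump genes tested had a median TE of 1.42, against 1.24 for the 10 genes described here. No test was made of these medians.

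For the pump genes, the question was how the whole-kidney level of each subunit position is divided between its restricted and its widespread paralogues. These shares sum over all cell types of the kidney, so they do not give the make-up of the pump in intercalated cells. The restricted form held the majority of the position only for subunit a, where Atp6v0a4 made up 65.9% ± 1.63 of the summed RNA RPKM of Atp6v0a4, Atp6v0a1, Atp6v0a2 and Tcirg1 (SD, n = 24). Atp6v1g3 made up 27.4% ± 2.56 of the G position beside Atp6v1g1, Atp6v0d2 22.96% ± 2.06 of the d position beside Atp6v0d1, Atp6v1b1 21.6% ± 1.75 of the B position beside Atp6v1b2, and Atp6v1c2 15.9% ± 1.63 of the C position beside Atp6v1c1. The widespread partners were abundant, at 286 RPKM for Atp6v1g1, 256 RPKM for Atp6v1b2, 102 RPKM for Atp6v1c1 and 100.02 RPKM for Atp6v0d1 in RNA-seq. How fragments common to paralogues were assigned is not given in the sources used here, so the split is uncertain to that extent. The partners of subunit a were lower, with mean RNA levels of 42.2 RPKM for Atp6v0a2, 30.2 RPKM for Atp6v0a1 and 8.63 RPKM for Tcirg1.

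Footprints divided 3 of these positions differently from RNA. The B share of Atp6v1b1 was 18.9% ± 2.04 in RPF-seq, lower than in RNA-seq by 2.63 ± 2.00 percentage points (SD of the difference) and higher in only 3 of 24 pools (sign-flip permutation test over pools, two-sided, adjusted p = 5e-05 over the 5 positions). The G share of Atp6v1g3 was 24.0% ± 4.75 in RPF-seq and higher than in RNA-seq in 6 of 24 pools (permutation test, adjusted p = 0.000933), but with the replicate 1 pools left out this no longer passed (permutation test, adjusted p = 0.0669). The a share of Atp6v0a4 rose to 68.7% ± 1.52 and was higher in RPF-seq in 24 of 24 pools (permutation test, adjusted p = 5e-05, from the smallest p that 100000 resamples can give). This rise depended on the partner. Against Atp6v0a2 alone, whose TE was 0.427, the Atp6v0a4 share went from 78.8% in RNA-seq to 87.0% in RPF-seq, whereas against Atp6v0a1 alone, with a TE of 0.967, it went from 83.9% to 80.4% and was lower in all 24 pools. The C and d shares did not pass the test (permutation test, adjusted p = 0.429 for both), with differences of 0.389 ± 2.37 and -0.548 ± 3.36 percentage points. Without the pool of ZT04 replicate 2 the same 3 positions passed.

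**Figure D2:**
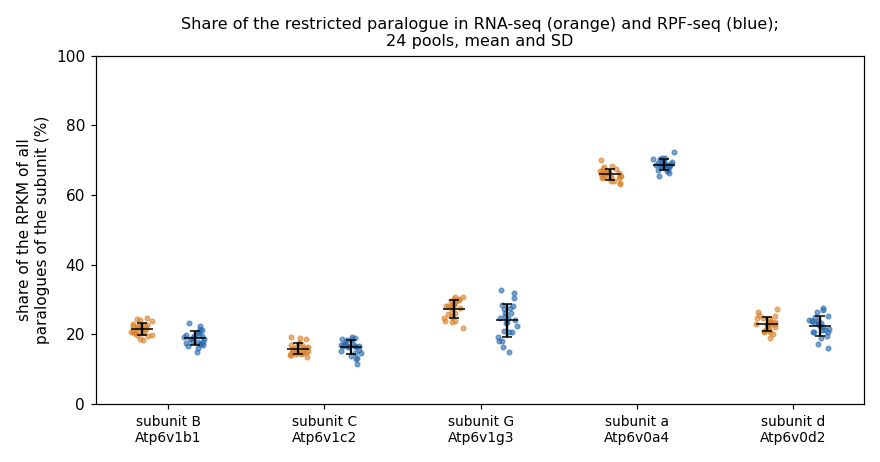
Share (%) of the restricted paralogue in the summed whole-kidney RPKM of all paralogues of 5 pump subunits, in RNA-seq (orange) and RPF-seq (blue). Points are the 24 pools, and the black marks show the mean and SD. The blue points of Atp6v0a4 have a higher mean than the orange ones, 68.7% against 65.9%. Those of Atp6v1b1 have a lower mean, 18.9% against 21.6%. In both the ranges overlap, and the C and d positions overlap almost fully.

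Next, 24-h rhythms were tested for each gene by limma's moderated F test of a cosine and sine over the 24 samples of an assay, on log2(RPKM + 0.1), a scale that slightly understates changes of low genes. A gene was called rhythmic at a Benjamini-Hochberg FDR under 0.05 over all genes tested and a fitted peak-to-trough fold of at least 1.5. In RNA-seq 1 of the 10 genes, Foxi1, was rhythmic, beside 10.2% of all genes tested. Without the fold cutoff the count was 4 of 10, namely Foxi1, Rhcg, Atp6v0d2 and Atp6v1g3, beside 48.6% of all genes. In RPF-seq 1 of 10, Atp6v1g3, was rhythmic beside 7.58% of all genes, and without the fold cutoff 4 of 10, namely Atp6v1g3, Rhcg, Atp6v0a4 and Car2, beside 30.9%. For transcripts the median fitted fold of the 10 genes was 1.18, against 1.20 over all genes, and for footprints it was 1.19, against 1.18. With timepoint as a factor in place of the curve, 1 of 10 genes passed in RNA-seq beside 19.3% of all genes, and 2 of 10 in RPF-seq beside 9.54%. These counts lay near the background, and the fitted 24-h change was under 1.5-fold in most of the set.

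**Figure D3:**
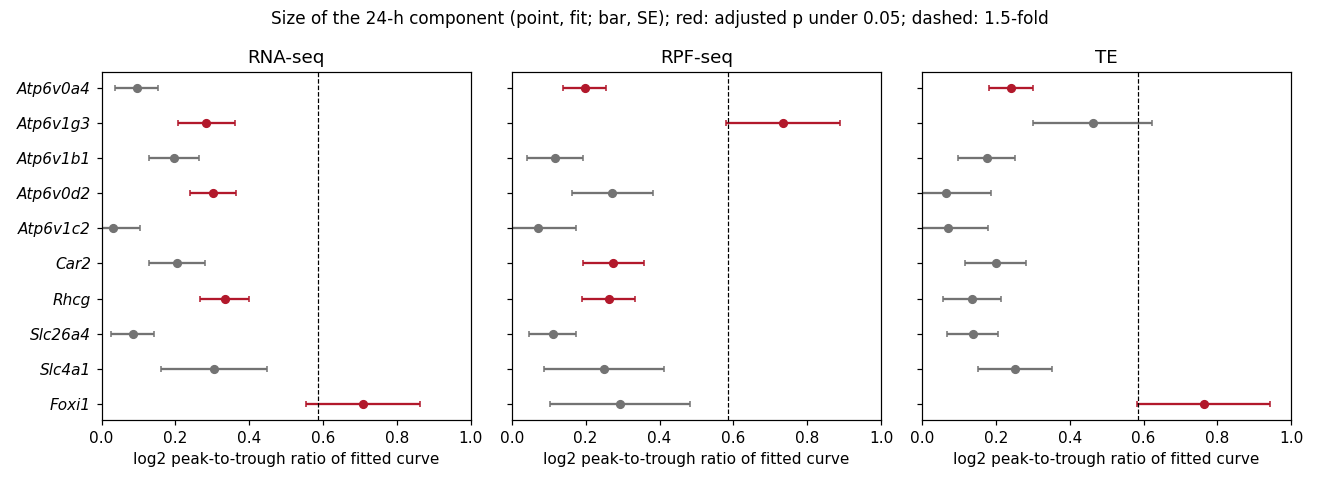
Fitted log2 peak-to-trough ratio of the 24-h curve (horizontal axes) for the 10 genes in RNA-seq, RPF-seq and TE. Points are fits over 24 samples or pools, bars are SE, red marks an adjusted p under 0.05 and the dashed line is the 1.5-fold limit. In RNA-seq only Foxi1 lies right of the line, in RPF-seq only Atp6v1g3, and in TE only Foxi1.

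Foxi1 (ENSMUSG00000047861, chr11:34204338-34208089, minus strand, GRCm38) is known to switch on pump subunit and exchanger genes in intercalated cells. In the first hours of light its RNA was at 8.63 and 7.98 RPKM in the 2 pools of ZT00, 6.95 and 5.32 RPKM at ZT02, 5.29 and 5.11 RPKM at ZT04 and 7.88 and 6.11 RPKM at ZT06. Through the later light phase it was at 7.39 and 8.99 RPKM at ZT08, 7.73 and 11.2 RPKM at ZT10 and 10.3 and 6.998 RPKM at ZT12. In the dark phase it reached 13.9 and 12.0 RPKM at ZT14 and 11.8 and 9.59 RPKM at ZT16, before 8.30 and 6.04 RPKM at ZT18, 8.68 and 7.82 RPKM at ZT20 and 8.16 and 8.13 RPKM at ZT22. Both pools of ZT14 were thus above the pools of every other timepoint, and both pools of ZT04 were below those of every other timepoint. The fitted log2 peak-to-trough ratio was 0.71 ± 0.15 (SE), a 1.63-fold change, with the peak at ZT14.7 ± 0.827 h (limma, FDR = 0.00195). The call held when any single library was left out (FDR from 0.000273 to 0.00614) and was lost when all replicate 1 libraries were left out (FDR = 0.161). At the median of 148.5 reads, counting error alone is 8.21% of a value.

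Foxi1 footprints gave no such curve. They ranged from 7.12 RPKM at ZT12 replicate 2 to 15.6 RPKM at ZT14 replicate 1 with a median of 11.2 RPKM, and the fitted log2 ratio was 0.29 ± 0.19 (limma, FDR = 0.443). The 2 pools of a timepoint differed by a median of 1.22-fold and by 1.79-fold at ZT04, where they were at 8.06 and 14.4 RPKM. The spread between pools was therefore as large as the fitted change. Footprints were nevertheless highest at ZT14 in the mean, as RNA was.

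TE had a 24-h component in 2 of the 10 genes, Foxi1 and Atp6v0a4, beside 17.1% of all genes tested (limma, FDR under 0.05, no fold cutoff). This test is the interaction of assay with time of day. RNA is the divisor of TE, so an RNA curve that footprints do not follow gives an opposite curve in TE. For Foxi1 the fitted log2 ratio was 0.76 ± 0.18, a 1.70-fold change, with the highest TE at ZT1.17 ± 0.904 h (FDR = 0.0169). The ratio was 1.65 and 1.56 in the pools of ZT00, 1.52 and 2.83 at ZT04, 1.01 and 1.43 at ZT08, 0.733 and 1.02 at ZT12, 0.881 and 0.850 at ZT16 and 1.64 and 1.02 at ZT20. It was 1.64 and 1.37 at ZT02, 1.36 and 1.28 at ZT06, 1.24 and 1.00 at ZT10, 1.12 and 1.13 at ZT14, 1.45 and 1.95 at ZT18 and 1.38 and 1.40 at ZT22. The pools of ZT12 to ZT16 stayed at or below 1.13, and all pools of ZT00 to ZT06 were above them. The highest value, 2.83, belongs to the RPF-seq library with 125 genes at 0. The call held without that pool and without any other single pool (FDR from 0.00737 to 0.0382), but not with either replicate series alone (FDR = 0.394 and 0.105). With timepoint as a factor 0 of 10 genes passed in TE beside 0.851% of all genes (limma). An AIC choice between the curve and a flat line instead gave 7 of 10 beside 53.6% of all genes.

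For Atp6v0a4 (ENSMUSG00000038600, chr6:38048483-38124586, minus strand), the a subunit of the apical pump, the TE component was smaller, with a log2 ratio of 0.24 ± 0.06, a 1.18-fold change and a peak at ZT13.0 ± 0.960 h (limma, FDR = 0.0241). Its TE was lowest in the pools of ZT04, at 0.682 and 0.623, and its highest timepoint means were at ZT14, with pools at 0.897 and 0.817, and ZT16, with pools at 0.772 and 0.876. Foxi1 and Atp6v0a4 thus had their fitted TE peaks in opposite parts of the day. RNA of Atp6v0a4 had no 24-h component (FDR = 0.357) but was high at ZT04 with 170.4 and 172 RPKM and again at ZT16 with 180.1 and 172 RPKM, and a test for any difference between timepoints gave FDR = 0.0306 with a largest difference of 0.27 on the log2 scale. Footprints peaked at ZT14.4 with a 1.15-fold change (FDR = 0.0314), but without single libraries this FDR ran from 0.0224 to 0.0708. It missed the threshold without ZT04 replicate 2, ZT14 replicate 1 or either library of ZT16, and without replicate series 1 or 2 (FDR = 0.323 and 0.1004). The TE component of Atp6v0a4 was lost with either replicate series alone (FDR = 0.473 and 0.176) and with a 12-h harmonic added (FDR = 0.0731).

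**Figure D4:**
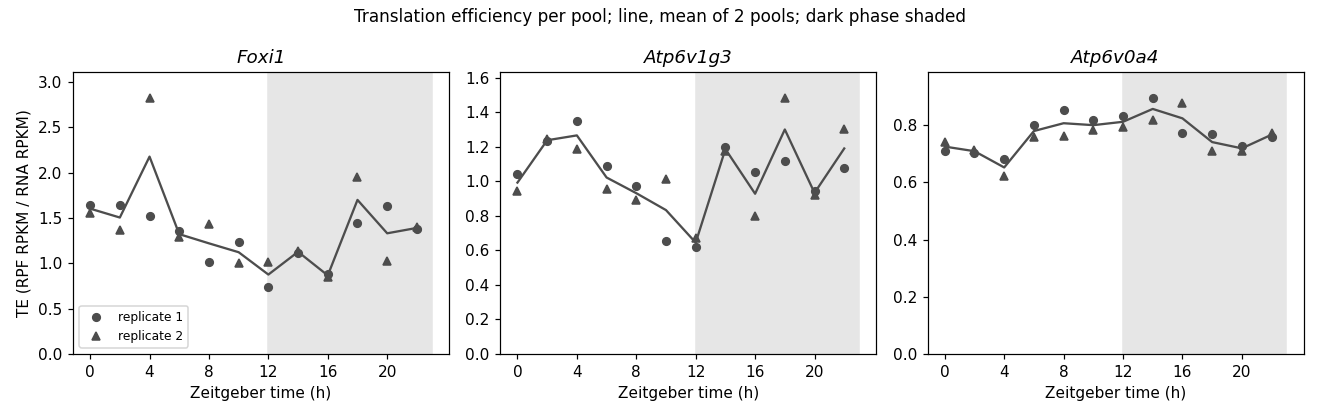
TE (RPF RPKM over RNA RPKM of a pool, vertical axes starting at 0) of Foxi1, Atp6v1g3 and Atp6v0a4 against Zeitgeber time in hours. Circles are replicate 1, triangles replicate 2, the line joins the means and the dark phase is shaded. Foxi1 has a single pool at 2.83 at ZT04, Atp6v1g3 has both pools of ZT12 near its minimum of 0.617, and Atp6v0a4 stays between 0.623 and 0.897.

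Atp6v1g3 (ENSMUSG00000026394, chr1:138273738-138289462, plus strand) encodes the kidney form of subunit G, part of the stalk of the V1 sector. Its footprints were at 100.5 and 103 RPKM at ZT00, 148 and 146 RPKM at ZT02, 167 and 149.7 RPKM at ZT04 and 122 and 101 RPKM at ZT06. They then fell to 96.1 and 92.5 RPKM at ZT08, 62.4 and 106 RPKM at ZT10 and 58.5 and 71.2 RPKM at ZT12. In the dark phase they were at 103 and 115 RPKM at ZT14, 104 and 86.3 RPKM at ZT16, 124 and 128 RPKM at ZT18, 119.9 and 119 RPKM at ZT20 and 127 and 145 RPKM at ZT22. Both pools of ZT02 and ZT04 exceeded every other pool, and both pools of ZT12 lay below every other pool apart from ZT10 replicate 1. The fitted log2 ratio was 0.73 ± 0.15, a 1.66-fold change, with the peak at ZT0.0242 ± 0.801 h (limma, FDR = 0.00274). Both pools of ZT00 were below those of ZT22 and ZT02, so the fitted curve missed a dip at its own peak. Low footprints at ZT00 were not particular to this gene. Atp6v1b1, Atp6v1c2 and Slc26a4 had their lowest mean footprints there, at 78.0, 16.1 and 46.8 RPKM, while the rest of the set was lowest at other timepoints. Without any single library the footprint FDR of Atp6v1g3 stayed between 0.000892 and 0.00816, and without all replicate 1 libraries it was 0.162. RNA of Atp6v1g3 moved less, from 85.4 to 129 RPKM, with a log2 ratio of 0.28 ± 0.08 and a peak at ZT0.885 (FDR = 0.0125, and 0.356 without all replicate 1 libraries). The RPF peak differed from the RNA peak by -0.860 ± 1.31 h, within its error. The TE of Atp6v1g3 had a log2 ratio of 0.46 ± 0.16 that did not pass the test (FDR = 0.105), so footprints were not shown to swing more than RNA.

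Atp6v0d2 (ENSMUSG00000028238, chr4:19876841-19922605, minus strand), the restricted d subunit that joins the central stalk to V0, had RNA with a 1.23-fold change and a peak at ZT0.293 ± 0.792 h (limma, FDR = 0.00129, and 0.132 without all replicate 1 libraries), from 23.7 RPKM at ZT14 replicate 1 to 35.4 RPKM at ZT20 replicate 2. Its footprints fitted a 24-h curve less well (limma, FDR = 0.143, and from 0.0137 to 0.294 without single libraries). Their lowest pools were those of ZT12, at 28.7 and 30.3 RPKM, with 1 pool each of ZT00 and ZT10 at 29.7 and 30.2 RPKM, and the highest was ZT04 replicate 1 at 53.1 RPKM. With timepoint as a factor the footprints did differ between times, by 0.69 on the log2 scale between the highest and lowest timepoint (limma, FDR = 0.0386, and 0.0233 without ZT04 replicate 2), beside 9.54% of all genes. The low values at ZT12 and high values at ZT04 are those seen for Atp6v1g3 too.

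These 2 pump genes were the most closely related pair of the set. Over 24 samples Pearson's r of Atp6v0d2 with Atp6v1g3 was 0.834 in RNA-seq (Spearman's rho 0.838, permutation test, adjusted p = 0.00045 for both over 45 pairs) and 0.878 in RPF-seq (rho 0.825, permutation test, adjusted p = 0.00045 for both). Without the 2 samples farthest from the median of Atp6v0d2, r was 0.795 and 0.908, and without ZT04 replicate 2 alone it was 0.884 in RPF-seq. Between the replicates of a timepoint, where time of day is held fixed, the differences of both genes had r = 0.695 in RNA-seq and 0.714 in RPF-seq over 12 timepoints, and these did not pass adjustment over the 45 pairs (permutation test, adjusted p = 0.129 and 0.251, with rho of 0.601 and 0.755 and adjusted p = 0.226 and 0.132). Of the 45 pairs, 2 in RNA-seq and 8 in RPF-seq passed for Pearson's r, and the median r was 0.0743 and 0.207. Of the replicate differences, 1 of 45 pairs passed in RNA-seq, Atp6v0d2 with Atp6v1c2 (r = 0.812, permutation test, adjusted p = 0.0252, and 0.653 without the 2 farthest), while rho, at 0.748, did not (permutation test, adjusted p = 0.165). Samples of one assay also share depth and composition.

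**Figure D5:**
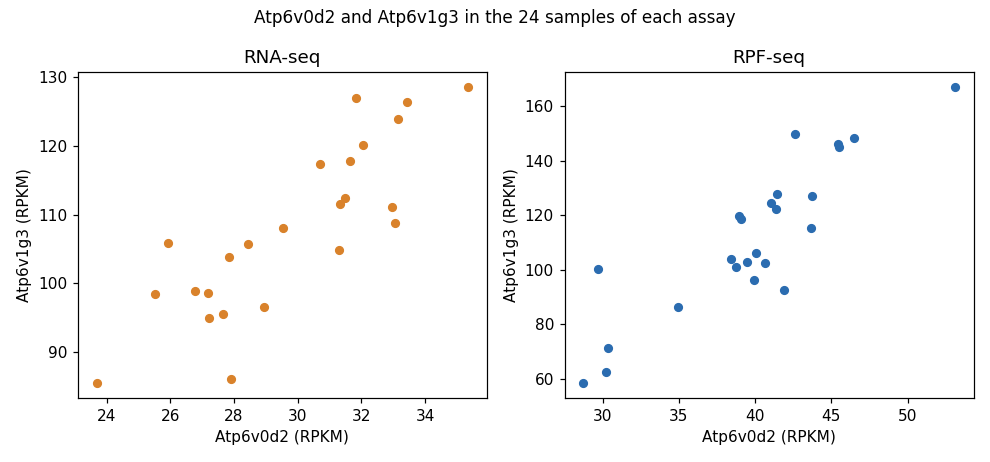
RPKM of Atp6v1g3 (vertical axes) against RPKM of Atp6v0d2 (horizontal axes) in RNA-seq (left) and RPF-seq (right). Each point is 1 of 24 samples, and axes do not start at 0. Points rise together in both assays, with Pearson's r of 0.834 and 0.878 on log2 values.

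The other pump genes of the set, Atp6v1b1 and Atp6v1c2, had no 24-h component that passed. Atp6v1b1 (chr6:83742990-83758855, plus strand), the restricted B subunit of the catalytic head, ranged from 59.7 to 82.9 RPKM in RNA-seq with a 1.15-fold fitted change (limma, FDR = 0.0518) and from 76.4 to 110.3 RPKM in RPF-seq (FDR = 0.445). Its RNA was close to the threshold, and without single libraries the RNA-seq FDR ran from 0.00915 to 0.125 (limma). Atp6v1c2 (chr12:17284721-17329359, minus strand), a C subunit form, ranged from 16.5 to 23.6 RPKM in RNA-seq (FDR = 0.930) and from 15.9 to 23.6 RPKM in RPF-seq (FDR = 0.847). Timepoint means of footprints did differ, from 78.0 RPKM at ZT00 to 109.5 RPKM at ZT14 for Atp6v1b1. For Atp6v1c2 they went from 16.1 RPKM at ZT00 to 22.5 RPKM at ZT04. Neither gene passed in RPF-seq with timepoint as a factor.

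Since Foxi1 is a forkhead factor, the promoters of the set were searched for a forkhead motif. RefSeq promoter sequences on GRCm38.p6, from 250 bases before to 50 after the start, were given for 7 of the 10 genes, all except Atp6v0d2, Slc4a1 and Car2. The letters TGTTTAC or their reverse complement GTAAACA occur in 3.65% of 32851 promoters and in 1 of the 7, that of Atp6v1b1. The window at chr6:83742908-83742937 on the plus strand, whose capitals mark the motif with its first base 98 bases before the RefSeq start at chr6:83743017, not the GENCODE gene start given above, is shown because it is the only such match in the set.
Atp6v1b1: accagcttcccTGTTTACagtcaacctggc
The clock motifs CACGTG and TTATGTAA, searched on both strands, occur in 7.15% and 0.938% of all promoters and in none of the 7. A match is a description of letters in a window, and the data hold no measurement of binding there.

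Among the transporters Rhcg (chr7:79593363-79617657, minus strand) had the clearest 24-h component. Its RNA was highest in the pools of ZT14, at 77.0 and 79.6 RPKM, and ZT16, at 78.7 and 71.8 RPKM, and lowest at ZT04 replicate 2 with 49.5 RPKM. The fitted change was 1.26-fold in RNA-seq with the peak at ZT15.5 ± 0.768 h (limma, FDR = 0.000969) and 1.20-fold in RPF-seq with the peak at ZT17.0 ± 1.06 h (FDR = 0.0221), so both were under the 1.5-fold limit. The RNA component was lost without all replicate 2 libraries (FDR = 0.134) and with timepoint as a factor (FDR = 0.0588). In RPF-seq it was lost without ZT06 replicate 1 (FDR = 0.0597) and without replicate series 1 or 2 (FDR = 0.410 and 0.0961). The fitted RPF peak lay 1.52 ± 1.31 h (SE) after the RNA peak, a difference close to its error, so no delay was shown. TE had no component that passed (limma, FDR = 0.391). Rhcg and Foxi1 RNA, both highest at ZT14, had r = 0.649 over 24 samples (permutation test, adjusted p = 0.01485 over 45 pairs), but rho was 0.508 (permutation test, adjusted p = 0.197), and r was 0.499 without the 2 farthest samples.

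Slc26a4 (chr12:31519827-31559969, minus strand), the apical exchanger of type B cells, had the lowest coefficient of variation of the set in both assays, 6.70% for RNA and 7.56% for footprints, and no 24-h component (limma, FDR = 0.464 and 0.360). Car2 (chr3:14886273-14900770, plus strand) had a 1.21-fold component in RPF-seq with the peak at ZT22.4 ± 1.15 h (FDR = 0.0359), and its RNA did not pass (FDR = 0.0768). Leaving out single libraries moved the RPF-seq FDR of Car2 between 0.0118 and 0.0963. It missed the threshold without ZT00 replicate 1, ZT06 replicate 1, ZT08 replicate 2, ZT10 replicate 1 or either library of ZT12 or ZT20, and without replicate series 1 or 2 it was 0.436 and 0.0803.

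Slc4a1 (chr11:102348824-102366203, minus strand) differed widely between the pools of some timepoints. In RNA-seq it ranged from 13.0 to 28.0 RPKM with a median of 15.5 RPKM, and no 24-h component passed (limma, FDR = 0.190 in RNA-seq and 0.451 in RPF-seq). Without single libraries the RNA-seq FDR ran from 0.110 to 0.372 (limma). Over the other settings, replicate series among them, the log2 ratio in RNA-seq ran from 0.101 to 0.577, and none gave a call. At ZT04 its RNA was at 22.4 RPKM in replicate 1 and 15.4 RPKM in replicate 2. The pools of ZT10 were at 13.4 and 28.0 RPKM in RNA-seq and at 15.1 and 28.6 RPKM in RPF-seq, differences of 2.08-fold and 1.89-fold between replicates. Those of ZT06 were at 23.3 and 14.4 RPKM in RNA-seq and at 25.9 and 16.4 RPKM in RPF-seq. At these timepoints the higher pool was the same in both assays, whereas ZT20 replicate 2 was high in RPF-seq alone, at 24.0 RPKM against 14.1 RPKM in RNA-seq. Over the 24 pools r between RNA and RPF of Slc4a1 was 0.793 (rho 0.653, permutation test, adjusted p = 0.0001 and 0.0037 over 10 genes, r = 0.691 without the 2 farthest pools), and it was 0.652 for Rhcg (rho 0.695, permutation test, adjusted p = 0.00335 and 0.0019, r = 0.751 without the 2 farthest). Without ZT04 replicate 2 it was 0.792 for Slc4a1 and 0.799 for Rhcg. Pearson's r passed for 5 of the 10 genes over all pools and for 7 without that pool, when it also passed for Foxi1 (r = 0.505, permutation test, adjusted p = 0.0281, rho 0.507, adjusted p = 0.0291, r = 0.357 without the 2 farthest) and Atp6v0a4 (r = 0.491, permutation test, adjusted p = 0.0281, but rho 0.288, adjusted p = 0.183, r = 0.332 without the 2 farthest). Over all 24 pools neither passed (r = 0.349 and 0.362, permutation test, adjusted p = 0.105 and 0.1, rho 0.346 and 0.170, adjusted p = 0.122 and 0.429).

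Because Slc4a1 is also a red cell gene, the erythroid markers were set beside it. Of 15 listed, 7 were found in both assays, the haemoglobin genes Hba-a1, Hba-a2 and Hbb-bt among them, and their summed RNA level ran from 56.2 RPKM at ZT04 replicate 2 to 376 RPKM at ZT16 replicate 1. In the pools of ZT10 the sum was 82.2 and 166 RPKM, and in those of ZT06 it was 117 and 91.7 RPKM. At ZT16, where the sum was 376 and 329 RPKM, Slc4a1 was at 16.3 and 17.95 RPKM, both above its median of 15.5 RPKM. Other pools went the other way. At ZT12 the RNA sum was 193.1 and 172.8 RPKM, and Slc4a1 RNA was at 14.17 and 12.99 RPKM. In ZT04 replicate 1 the RNA sum was 74.74 RPKM and Slc4a1 RNA was at 22.37 RPKM. In RPF-seq the sum at ZT16 was 231.2 and 157.5 RPKM. Slc4a1 footprints there were at 15.72 and 17.02 RPKM, both below their median of 17.71 RPKM. Over 24 samples r of Slc4a1 with the sum was 0.0845 in RNA-seq (rho 0.106, permutation test, adjusted p = 0.698 and 0.620, r = 0.0538 without the 2 farthest) and -0.332 in RPF-seq (rho -0.357, permutation test, adjusted p = 0.149 and 0.133, r = -0.225 without the 2 farthest). For Car2, which red cells also hold, r with the sum was 0.322 in RNA-seq (rho 0.238, permutation test, adjusted p = 0.149 and 0.312, r = 0.0467 without the 2 farthest) and -0.372 in RPF-seq (rho -0.444, permutation test, adjusted p = 0.147 and 0.0633, r = -0.438 without the 2 farthest). For Atp6v0d2 and the summed level of 7 macrophage markers, all found, with a range of 80.8 to 131.5 RPKM in RNA-seq and 101 to 167 RPKM in RPF-seq, r was 0.388 in RNA-seq (rho 0.448, permutation test, adjusted p = 0.147 and 0.0633, r = 0.409 without the 2 farthest) and 0.505 in RPF-seq (rho 0.484, permutation test, adjusted p = 0.0700 and 0.0633, r = 0.473 without the 2 farthest). These p-values were adjusted over the 6 correlations with marker sums, and 0 of 6 passed for r or rho, also without ZT04 replicate 2. The part of macrophages in the Atp6v0d2 values, and of red cells in those of Slc4a1 and Car2, was not tested.

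Other genes of the pump and of the same cells were taken from lists. Of 18 other pump genes tested, 1 was rhythmic in RNA-seq, Atp6v0c, the proteolipid of the V0 ring, with a 1.63-fold change and a peak at ZT7.16 (limma, FDR = 0.000723), and none in RPF-seq, where 5 passed the FDR without the fold cutoff. Over all genes the shares were 10.2% in RNA-seq and 7.58% in RPF-seq, and 30.9% in RPF-seq without the fold cutoff. In TE 6 of 18 passed, and also 6 of 20 other intercalated cell genes, beside 17.1% of all genes. Atp6v0c was again the largest of the pump genes, at 1.74-fold. Of 20 other intercalated cell genes tested, 1 was rhythmic in RNA-seq and in RPF-seq, Avpr1a, which encodes a vasopressin receptor, with 3.42-fold and 3.07-fold changes and peaks at ZT0.286 and ZT23.1 (FDR = 9.64e-11 and 2.21e-06). The 21 of these genes found in both assays had a summed RNA level of 518 to 594 RPKM, and the 10 genes described here one of 721 to 895 RPKM. Of 9 principal cell genes, which mark the neighbouring cells of the collecting duct, 5 were rhythmic in RNA-seq and 3 in RPF-seq, beside 10.2% and 7.58% of all genes. The largest fold was that of Hsd11b2 in RNA-seq, at 1.77 with the peak at ZT5.06 (limma, FDR = 0.000819), the enzyme that inactivates glucocorticoids, and in RPF-seq that of Avpr2, the vasopressin V2 receptor, at 1.70 with the peak at ZT20.5 (FDR = 0.000312). Footprints of Hsd11b2 had only a 1.19-fold change with the peak at ZT18.5 (limma, FDR = 0.0284). Its TE had a 2.08-fold change with the peak at ZT17.4 (limma, FDR = 0.001385). Aqp2, the water channel set by vasopressin, had a 1.72-fold change in RNA-seq with the peak at ZT14.8 and a 1.67-fold change in RPF-seq with the peak at ZT15.7 (FDR = 0.000359 and 0.00484).

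For each of the 10 genes the gene outside the set with the most similar RNA profile was found by Pearson's r over the 24 RNA-seq samples, given here as a description. Rhcg was most like Herpud1 (r = 0.845), closely followed by Tfcp2l1 (r = 0.843), a collecting duct transcription factor. Car2 was most like Higd1a (r = 0.838) and next Kcnj1 (r = 0.835), the apical potassium channel of the loop of Henle and collecting duct. The highest value of all was that of Atp6v1b1 with Mgat4b (r = 0.903), and r was 0.876 for Atp6v0d2 with Serpinb9 and 0.843 for Foxi1 with Dcaf5. The best r of the remaining 5 genes were 0.799 for Slc26a4 with Gmfb, 0.798 for Slc4a1 with Mgll, 0.797 for Atp6v1g3 with Zfp940, 0.792 for Atp6v0a4 with Itpr1 and 0.745 for Atp6v1c2 with Ubr7.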

How the data were processed

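The authors trimmed adapters with Cutadapt, selected fragments by size, mapped them in sequence to rRNA, tRNA and cDNA with Bowtie2 2.2.1 and to GRCm38.p2 with TopHat2 2.0.11, derived transcript models with Cufflinks 2.2.1 and, per the study's methods, scaled coding-sequence reads by the upper quantile method of edgeR. The deposited values are RPKM per gene. How fragments shared by paralogues were assigned is not given in the sources used here. RPKM times coding length gave whole reads (tolerance 0.02) for at least 98.3% of values tested in each library, which supplied the depth. Counting error was taken as Poisson. Upper quantile scaling hides a change in total mRNA or footprints per cell.

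Fits used limma 3.58.1 (lmFit, eBayes with trend) in R 4.3.3 on log2(RPKM + 0.1) over all 11863 genes. Permutation tests used 100000 resamples (Python 3.11.15, numpy 2.4.6). Correlations were computed on log2 values. Scripts were tested on simulated data. Coordinates are GENCODE vM21. The members and lists were chosen with earlier results of these data known, and the correlation between assays over pools was added after seeing the values. Named genes are all 10 members, called genes of largest fold in the other lists, all partner subunits and the gene most alike to each member, with next-best genes named after their values were seen. Nothing in the labels pairs replicate numbers across timepoints. Sampling spanned 2 daily cycles per the study's methods, and whether the replicate number marks the cycle is not given in the sources used here, so a difference between replicate series and one between cycles cannot be told apart. Tests without ZT04 replicate 2 for shares, correlations and timepoint as a factor were chosen after seeing the data.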

Additional observations from a re-analysis of the deposited data

Results flagged for a closer look

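The time course differed between the assays, by the interaction of assay with time of day, for 2 of the 10 genes. For Foxi1 the adjusted p was 0.0169 (limma), with a fitted RNA peak at ZT14.7 and a fitted TE maximum at ZT1.17. As RNA is the divisor of TE, the RNA and TE curves of Foxi1 are not separate results. For Atp6v0a4 the adjusted p was 0.0241 (limma), with the fitted TE maximum at ZT13.0. Both were lost when either replicate series was used alone. At each timepoint only 2 pools were available, so single pools were not screened as outliers.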

How the results depend on the processing

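Among the 10 genes, 1 was rhythmic by RNA-seq, 1 by RPF-seq and 2 by TE. Dropping the fold cutoff gave 4 for RNA and 4 for footprints. Timepoint as a factor gave 2 for footprints and 0 for TE, and again 2 and 0 without ZT04 replicate 2, a setting chosen after seeing the data. TE also gave 7 genes with an AIC choice, beside 53.6% of all genes, 1 with a 12-h harmonic added, 1 with a fold of at least 1.5 and 0 at an FDR under 0.01. Over all fits that left out a library, a pool or a replicate series, the RNA count ran from 0 to 1, the footprint count from 0 to 1 and the TE count from 0 to 2. The zeros came without replicate 1 and, for TE, also without replicate 2. The other pseudocounts, RPKM minimums and quantile normalisation gave the main counts again. Same-numbered replicates did not deviate together (mean r 0.0291 for RNA and 0.0197 for footprints over 66 pairs of timepoints), and the replicate block gave counts of 1, 1 and 2.

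The difference in isoform share, in percentage points, ran without replicate 1 or 2 from -3.14 to -2.13 for B, from -0.247 to 1.03 for C, from -3.80 to -2.98 for G, from 2.31 to 3.24 for a and from -1.33 to 0.230 for d. It turned to -3.41 for a with Atp6v0a1 as the only partner, and to 0.0194 for d as the median over pools.

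Depth limits Foxi1 most, since it had as few as 71 reads in a library.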
